A study of Homo sapiens with 2 samples.

Results

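The ZNF genes examined here are the protein-coding genes named ZNF plus a number whose mean level over the 24 wells treated with DMSO was at least 5 CPM (counts per 1e6 human gene counts of the well). Of 461 such genes with any read, 147 met this minimum, among 57905 human gene rows in all. The members were chosen by the DMSO level alone, so that level is given as a description, and all fold changes share the DMSO wells that set it. ZNF691 was singled out in advance for its value after AZ5576, which is therefore also a description.

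The cells were K562, a long-established line grown from a person with chronic myeloid leukaemia, with erythroid features. They were kept for 6 h with inhibitors of transcription or of chromatin regulators, or with the vehicle DMSO, and their polyadenylated mRNA was read at the 3′ end by MAC-seq, in which every well receives its own barcode before the wells of a plate are pooled. The wells lay on 2 plates of 96, each with 12 DMSO wells and the same 74 other treatments, EtOH among them as a second solvent. Treatments are counted by deposited name, so PCI34051 and PCI_34051, and RGF966 and RGFP966, count separately, though each pair may be 1 compound. Duplicates were technical, so p-values measure only the spread between wells of 1 experiment, and doses were not given, so compounds are not ranked by strength. AZ5576 and actinomycin D (ActD) had 6 wells each and JQ1 also 6, while DRB, Triptolide, THZ1, THZ531, OTS964, A159, OkadaicAcid, Quisinostat, Panobinostat and EtOH had 2. AZ5576 and DRB inhibit CDK9, the kinase that releases paused RNA polymerase II. ActD intercalates into DNA, Triptolide blocks the helicase of the initiation factor TFIIH, THZ1 binds CDK7, THZ531 binds CDK12 and CDK13, and OTS964 inhibits CDK11. Okadaic acid inhibits protein phosphatases, Quisinostat and Panobinostat inhibit histone deacetylases (HDACs), and A159 is known here by its code name only. Globin and erythroid genes marked the line, with HBG2 at 17000 CPM and GATA1 at 263 CPM in DMSO, while the lymphoid markers CD2 and MS4A1 were at 0; EPCAM at 68.4 CPM and CD3D at 69.8 CPM were also read.

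C2H2 zinc finger proteins form the largest family of human transcription factors, and each finger typically reads a few bases of DNA. Many carry a KRAB domain, which recruits the corepressor TRIM28 and, through it, histone H3 lysine 9 methylation, mainly over transposable elements. Other members have few fingers and act outside transcription, in ribosome assembly, translation control or mitosis. Many of the genes lie in clusters, and their mRNAs are in general scarce and short-lived.

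Coding sequences were searched for finger and KRAB amino acid patterns. The KRAB pattern was a fixed string, so a KRAB domain that departs from it would be missed. Members without the pattern can therefore include KRAB genes, and "KRAB members" below means those with the pattern. A KRAB pattern was found in 59 members, 58 had at least 5 fingers and no KRAB pattern, and 30 had fewer fingers and no KRAB pattern; the finger count ran from 0 to 31. In the RefSeq annotation of assembly GRCh38.p14, 42 of the 147 members lay directly beside another member and 79 beside another ZNF gene of any level. These clusters can hold similar sequence, and the way reads shared by similar or overlapping genes were counted is not given in the sources used here.

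Promoters of 132 members, taken from RefSeq (GRCh38.p14) from 250 bases before to 50 bases after the gene start, were scanned on both strands. The ETS core CCGGAAG stood in 42.4% of them, against 23.3% of the 6995 tested genes that had a window and 10.3% of all 35116 promoters in the table. Among the 52 scanned members with a KRAB pattern, 57.7% held that core and 63.5% the CCAAT box (CCAAT), which stood in 38.6% of tested genes. The GC box GGGCGG stood in 68.9% of members and 72.5% of tested genes, and the TATA letters TATAAA in 4.55% and 5.10%. Among the 39 scanned members called lower in at least 5 treatments, 28.2% held the ETS core and 71.8% the GC box. These matches are a description of letters, not of binding. The promoters of 3 members are printed because the results turn on them: ZNF691 and ZNF775, which fell in most of the transcription inhibitor treatments, and ZNF593, the most abundant member. Capitals mark the GC box, the ETS core and the CCAAT box on either strand.

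ZNF691 (chr1:42846363-42846662, plus strand): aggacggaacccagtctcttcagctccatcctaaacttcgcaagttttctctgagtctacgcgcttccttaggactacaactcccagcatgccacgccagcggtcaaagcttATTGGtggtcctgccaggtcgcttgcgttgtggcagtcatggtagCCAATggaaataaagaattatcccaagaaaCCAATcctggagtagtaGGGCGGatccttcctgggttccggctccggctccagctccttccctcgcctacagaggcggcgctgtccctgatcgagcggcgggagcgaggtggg

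ZNF775 (chr7:150379080-150379379, plus strand): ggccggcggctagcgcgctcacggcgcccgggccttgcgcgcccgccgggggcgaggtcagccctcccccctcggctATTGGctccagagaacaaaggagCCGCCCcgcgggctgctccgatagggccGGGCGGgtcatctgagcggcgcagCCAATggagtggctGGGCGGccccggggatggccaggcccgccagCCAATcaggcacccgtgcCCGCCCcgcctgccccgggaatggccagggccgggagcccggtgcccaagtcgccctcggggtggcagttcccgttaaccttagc

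ZNF593 (chr1:26169658-26169957, plus strand): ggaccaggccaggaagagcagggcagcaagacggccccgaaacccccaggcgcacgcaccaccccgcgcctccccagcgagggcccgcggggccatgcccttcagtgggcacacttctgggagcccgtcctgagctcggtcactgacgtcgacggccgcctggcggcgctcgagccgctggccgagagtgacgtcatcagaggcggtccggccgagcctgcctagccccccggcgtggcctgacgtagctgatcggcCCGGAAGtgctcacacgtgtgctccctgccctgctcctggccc

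The windows of ZNF691 and ZNF775 each held 3 CCAAT boxes, and 1 and 4 GC boxes. The window of ZNF593 held 1 ETS core and no match to the other motifs.

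In DMSO the members were scarce. Together they took 0.264% of human gene reads, 68 members lay between 5 and 10 CPM, and 32 reached 20 CPM. The highest were ZNF593, a homologue of a yeast factor of ribosome assembly, with 333 CPM (SD 53.9, n = 24 wells), and ZNF706, a small protein with 1 finger, with 207 CPM (SD 22.0, n = 24). ZNF207, also called BuGZ, a spindle assembly protein, followed with 99.7 CPM (SD 16.8, n = 24), and these 3 genes held 24.1% of the members' reads. ZNF480, ZNF511, ZNF580, ZNF655, ZNF581, ZNF330 and ZNF428 had means between 46.1 and 74.3 CPM. Members with a KRAB pattern had a median of 8.47 CPM, those with at least 5 fingers and no KRAB pattern 11.9 CPM, and those with fewer fingers 20.1 CPM. At the edge of the rule, ZNF467 and ZNF92 stood at 5.03 and 5.01 CPM inside it, and ZNF562 and ZNF77 at 4.95 and 4.92 CPM outside it.

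Human counts per well ran from 173553 to 1906446, so that a member at 5 CPM had only a few reads in a well. The low-count filter of the test left 10312 genes and 143 of the 147 members; ZNF391, ZNF92, ZNF766 and ZNF823 were not tested. DMSO wells of the first plate column had 173553 to 462611 human counts and the other DMSO wells 446074 to 1030814, and their summed member level did not overlap with that of the other DMSO wells: 2815 to 3261 CPM against 2281 to 2672 on plate 1, and 3092 to 3642 against 2473 to 2892 on plate 2. Of the members, 123 of 147 had a higher mean in those 8 wells, with a median ratio of 1.35. With every first-column well left out, 134 members were tested. AZ5576 then lowered 87 of them and 26.7% of all genes, and ActD 70 and 22.6%. In the rest of the 11 treatments described next, from 16 (Panobinostat) to 43 (DRB) were lower, beside 8.11 and 15.2% of all genes. The members' median log2 fold change moved from -1.20 to -1.18 with AZ5576 and from -0.90 to -0.83 with ActD. It moved from -1.06 to -0.89 with THZ531, from -0.65 to -0.54 with OkadaicAcid and from -0.31 to -0.25 with Panobinostat. None of the wells of the 11 treatments described next lay in that column.

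In 11 treatments at least 20 members were called lower by the quasi-likelihood test of edgeR at an adjusted p under 0.05. Those treatments were AZ5576, ActD, A159, DRB, OkadaicAcid, Triptolide, OTS964, Quisinostat, THZ531, THZ1 and Panobinostat. In the other 63 treatments at most 15 members were lower, and the members' median log2 fold change lay between -0.23 and 0.14. The summed member level was 2281 to 3642 CPM in the DMSO wells (median 2694) and 2558 and 2821 CPM in the EtOH wells. It was 1337 to 1430 CPM (median 1379) in the 6 AZ5576 wells and 1478 to 1702 CPM (median 1563) in the 6 ActD wells. In pairs of wells it was 1314 and 1429 CPM with A159, 1430 and 1435 with DRB, 1440 and 1459 with Triptolide, 1495 and 1600 with THZ1, and 1591 and 1612 with THZ531. Every one of these wells lay below every DMSO well. OTS964 gave 1659 and 2068 CPM, OkadaicAcid 2064 and 2098, Quisinostat 2105 and 2235, and Panobinostat 1930 and 2357; the highest Panobinostat well lay within the DMSO range, and the others did not. Such shares are relative to all human reads of the well, so they measure neither cell number nor RNA per cell.

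**Figure D1:**
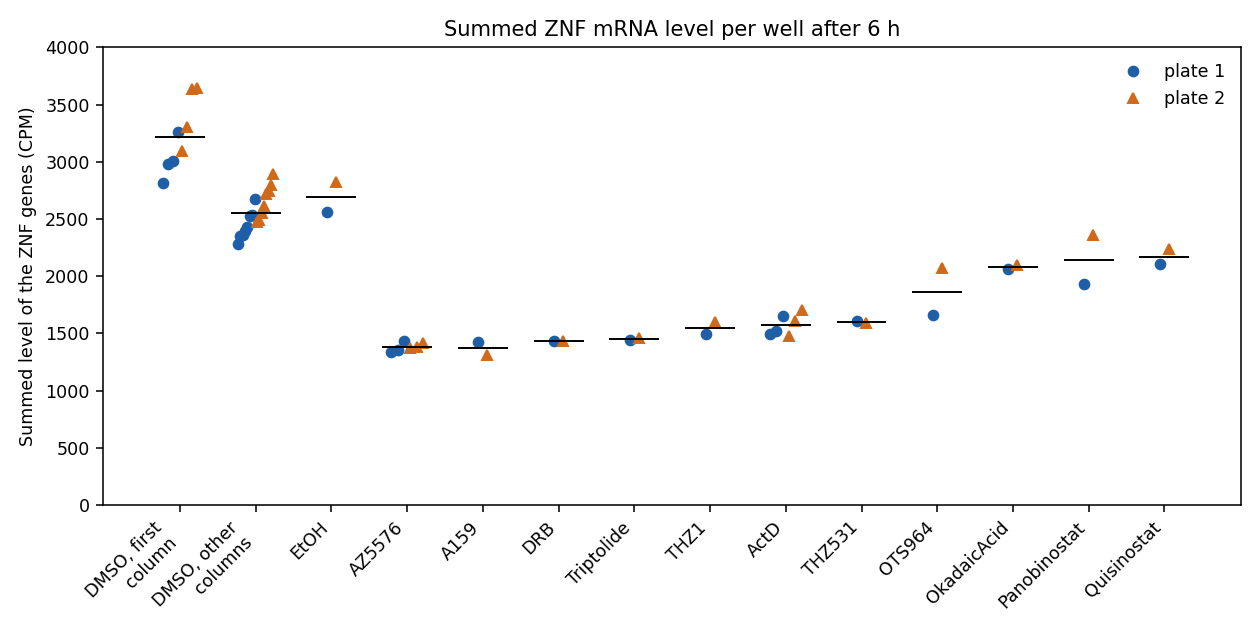
Summed level of the 147 ZNF genes in each well (CPM), with circles for plate 1, triangles for plate 2 and a bar at the mean of the wells. The AZ5576 wells sit between 1337 and 1430 CPM and the DMSO wells between 2281 and 3642 CPM, with the first plate column above the other columns.

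AZ5576 lowered most ZNF mRNAs. Of 143 tested members, 92 were lower (64.3%) and 2 higher, where 28.6% of all tested genes were lower, or 29.6% of the 9632 tested genes that also reached 5 CPM in DMSO, and 19.4% of all tested genes were higher. The members' median log2 fold change was -1.20, against -0.14 over all tested genes. Of the 32 members at 20 CPM or more, 21 were lower, and of the 111 below that level, 71. With the treated wells of 1 plate left out, 43.8 and 33.3% of members were lower, and 16.6 and 13.5% of all genes. In 25 members every AZ5576 well lay below every DMSO well, which held for 7.22% of all tested genes.

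ZNF691 (ENSG00000164011, 7 fingers and no KRAB pattern) had 11.97 to 32.8 CPM in DMSO (median 19.5). Its AZ5576 wells held 0, 2.60 and 1.75 CPM on plate 1 and 0, 2.68 and 1.83 CPM on plate 2, or 6 reads in all, where 1 read stood for 1.30 to 2.74 CPM. None of these wells reached the lowest DMSO well, and the log2 fold change was -2.97 (SE 0.40). Here and below, SE is derived from the test statistic. ZNF775 (ENSG00000196456, 12 fingers) had 14.9 to 57.4 CPM in DMSO (median 23.5) and 0, 0, 6.99, 0, 4.02 and 0 CPM with AZ5576, again with no overlap. Its log2 fold change was -3.03 (SE 0.42, edgeR adjusted p = 2.12e-10).

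ZNF74, with 12 fingers and a KRAB pattern, had 12.8 to 40.1 CPM in DMSO and 2.72 to 6.69 CPM (median 3.58) with AZ5576, a log2 fold change of -1.91 (SE 0.33, edgeR adjusted p = 4.38e-07). ZNF692, also known as AREBP, which represses gluconeogenic genes, had 18.4 to 110 CPM in DMSO (median 37.7) and 8.17 to 12.2 CPM (median 9.25) with AZ5576, a log2 fold change of -1.56 (SE 0.27, edgeR adjusted p = 5.19e-07). Its DMSO mean was 69.4 CPM in the first plate column and 32.1 CPM in the others, and the AZ5576 wells lay below both. ZNF576 had 15.4 to 40.3 CPM in DMSO and 3.91 to 10.5 CPM (median 6.09) with AZ5576 (log2 fold change -1.64, SE 0.24). ZNF672 and ZNF524 fell by 1.85 and 1.72 on the log2 scale, also with no overlap of wells.

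ZNF622, a maturation factor of the large ribosomal subunit, had 8.29 to 40.3 CPM in DMSO (median 26.4) and 0 to 8.74 CPM (median 5.46) with AZ5576. It fell by 1.79 on the log2 scale (SE 0.27), and its groups overlapped at the lowest DMSO well. ZNF146, a protein made almost wholly of fingers, had 0 to 49.2 CPM in DMSO (median 30.1) and 2.72 to 12.8 CPM (median 4.75) with AZ5576, and fell by 1.78 (SE 0.26). Among the abundant members the fall was smaller: ZNF207 had 67.4 to 141 CPM in DMSO and 35.6 to 70.8 CPM with AZ5576 (log2 fold change -0.73, SE 0.11), and ZNF593 264 to 428 CPM in DMSO and 182 to 242 CPM with AZ5576 (-0.33, SE 0.07).

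Some abundant members did not pass the test. ZNF706 had 177 to 260 CPM in DMSO and 157 to 193 CPM with AZ5576 (log2 fold change 0.07, SE 0.07), ZNF511 41.5 to 86.2 and 48.9 to 73.1 CPM (0.17, SE 0.11), and ZNF580 40.3 to 106 and 46.5 to 71.3 CPM (0.23, SE 0.13). These fold changes use TMM scaling, which sets most genes to no change, so a gene with a slightly lower CPM can have a fold change near 0. The 2 members called higher, chosen after their values were seen, were ZNF544 (7.77 to 34.6 CPM in DMSO, 15.7 to 33.5 with AZ5576, log2 fold change 0.58, SE 0.18) and ZNF90 (1.25 to 21.1 and 8.03 to 21.9 CPM, 0.76, SE 0.28); the wells of both overlapped with DMSO, and neither was called higher with ERCC scaling.

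**Figure D2:**
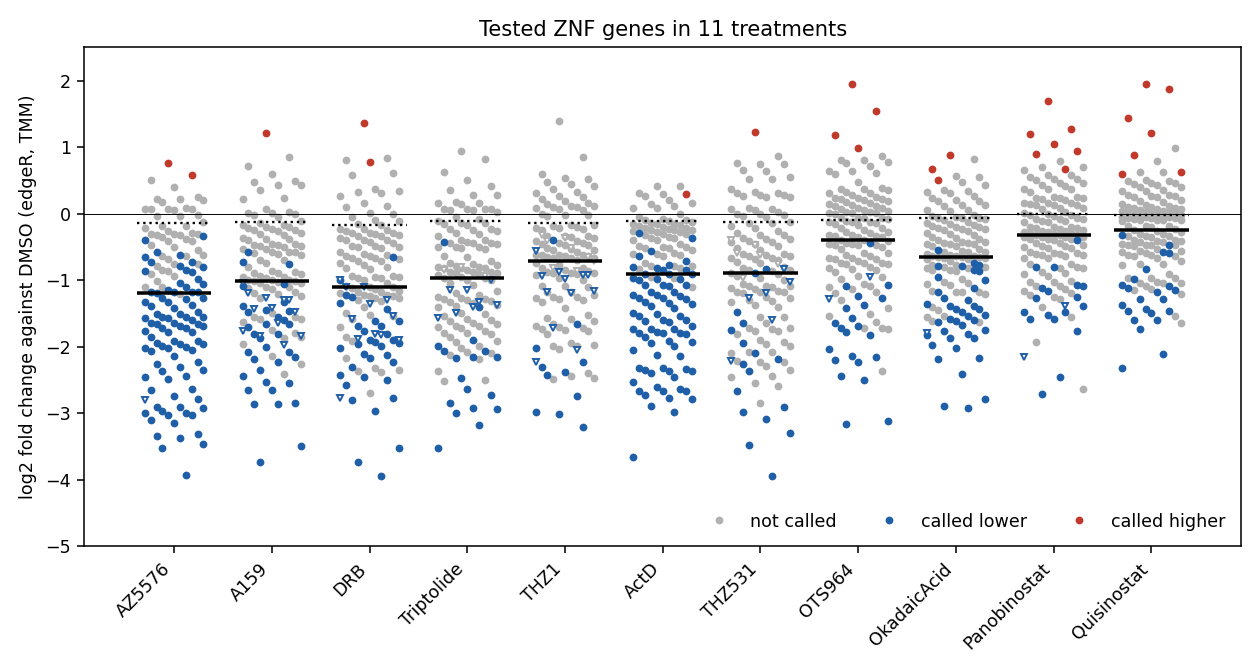
Log2 fold change against DMSO of each of the 143 tested ZNF genes (points) in 11 treatments, blue where called lower, red where called higher and grey where not called; open triangles are members with no read in the treated wells, drawn at the bound that 3 reads would give. Solid bars are the members' medians with those members at their bound, and dotted bars the medians of all 10312 tested genes; with AZ5576 the medians were -1.20 and -0.14.

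The scale of the wells matters for these signs. ERCC RNAs, synthetic transcripts added to each well, gave a ratio of human to ERCC reads of 2.95 to 7.03 in DMSO (median 4.94), 2.96 to 4.32 with AZ5576 (median 3.66) and 2.42 to 3.496 with ActD (median 2.96). Scaled to ERCC, the median of all genes moved by -0.74 on the log2 scale with AZ5576, by -0.93 with ActD, and by -0.76 to -0.88 with DRB, Triptolide, THZ1, THZ531, OTS964 and A159. The members' median then stood at -1.91 with AZ5576, with 135 members lower and 0 higher, while 81.2% of all genes were lower. Relative to the median of all genes, the members' median was -1.06 with TMM scaling, -1.05 when only the library size was used, and -1.03 with ERCC scaling. With ERCC scaling, fewer cells in a well and less RNA per cell cannot be told apart.

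ActD lowered 79 members (55.2%) and raised 1, where 25.2% of all tested genes were lower and 18.7% higher; the members' median log2 fold change was -0.90, against -0.11 over all genes. With the treated wells of 1 plate left out, 40.3 and 30.6% of members were lower, and 14.6 and 11.9% of all genes. ZNF581 (ENSG00000171425, 4 fingers) had 36.4 to 85.4 CPM in DMSO (median 55.2) and 8.12, 1.63, 5.44, 0, 7.28 and 14.5 CPM with ActD. The wells did not overlap, and the log2 fold change was -2.99 (SE 0.24, edgeR adjusted p = 8.94e-24). ZNF775 had 6.09, 4.89, 0, 0, 1.82 and 4.15 CPM and fell by 2.78 on the log2 scale (SE 0.39), and ZNF691 had 0 to 9.39 CPM (median 2.54) and a log2 fold change of -2.36 (SE 0.35). ZNF771 (8 fingers), ZNF576, ZNF74, ZNF622 and ZNF692 had log2 fold changes of -1.91, -1.79, -1.73, -1.62 and -1.35. ZNF830, a protein found with splicing factors, had 6.28 to 46.1 CPM in DMSO and 2.08 to 12.7 CPM (median 8.34) with ActD (-1.39, SE 0.29), with overlapping wells. The member called higher, ZNF480 (41.0 to 137 CPM in DMSO, 58.1 to 91.4 with ActD), had a log2 fold change of 0.29 (SE 0.11), lay within the DMSO range, and was not higher once wells were scaled to ERCC, where 0 members were.

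ZNF581 separated ActD from AZ5576. With AZ5576 it had 25.6 to 59.9 CPM and a log2 fold change against DMSO of -0.03 (SE 0.14, edgeR adjusted p = 0.888). Tested directly, ActD against AZ5576 gave -2.96 for ZNF581 (SE 0.29, edgeR adjusted p = 3.42e-17), with each ActD well below each AZ5576 well. It was the only member called in that comparison by edgeR with TMM scaling, where 1.84% of all genes were lower; 13 members had an unadjusted p under 0.05, limma-voom called 2 members, and library size alone gave 4. ZNF580, the gene directly beside ZNF581 in the RefSeq annotation, had 28.4 to 62.3 CPM with ActD (log2 fold change -0.21, SE 0.13, edgeR adjusted p = 0.197). Values of ZNF581 against DMSO in the other transcription inhibitors were 8.99 and 5.09 CPM with Triptolide (-2.64, SE 0.43), 11.4 and 8.15 with THZ1 (-2.24, SE 0.42), 16.9 and 14.7 with A159 (-1.47, SE 0.30), 16.7 and 33.4 with THZ531 (-0.89, SE 0.31), and 44.6 and 52.6 with DRB (0.16, SE 0.21, edgeR adjusted p = 0.605). ZNF581 was thus lower in Triptolide, THZ1, A159 and THZ531, and its DRB wells lay within the DMSO range.

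With DRB, 46 members (32.2%) were lower and 2 higher, against 16.2% and 12.9% of all tested genes, and the median was -1.12 (-1.10 with the 12 members that had no read set at their bound). With 1 treated well left out, 7.64% of members were lower in either case, and 4.35 and 3.61% of all genes; DESeq2 gave 16.8 and 8.51%. ZNF576 had 1.49 and 1.95 CPM, 2 reads in all, or 6.34% of its DMSO mean (95% interval 0.767 to 22.9%, covering the counting error of reads only). Reads were not collapsed to molecules, so this interval and those below can be too narrow. ZNF775 had 4.46 and 0 CPM, 3 reads, or 10.0% of its DMSO mean (2.07 to 29.3%), and ZNF691 1.49 and 0 CPM, 1 read, or 4.32% (0.109 to 24.1%). ZNF3, a KRAB gene at 17.2 CPM in DMSO that was chosen after its values were seen, had no read in either well. Taking 3 reads over both wells as the floor, it was at least 6.81-fold below its mean of all DMSO wells. That mean was 27.4 CPM in the first plate column and 12.15 CPM in the other columns, against which the bound is smaller. ZNF622 (4.46 and 5.85 CPM), ZNF692 (7.43 and 7.80 CPM) and ZNF770 (5.95 and 1.95 CPM) had log2 fold changes of -2.02, -1.96 and -1.94, and their wells lay below all DMSO wells. ZNF669 had 16.4 and 15.6 CPM against 2.32 to 23.1 in DMSO (1.36, SE 0.37, edgeR adjusted p = 0.00273), and ZNF544 31.2 and 25.3 CPM against 7.77 to 34.6 (0.77, SE 0.27); with ERCC scaling 0 members were higher and ZNF544 turned to -0.13.

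A159 lowered 48 members (33.6%) and raised 1, against 12.3% and 9.37% of all genes, with a median of -1.02. With 1 treated well left out, 6.25 and 4.17% of members and 2.45 and 2.37% of all genes were lower; DESeq2 gave 13.99 and 5.32%. ZNF146 had 5.07 and 3.68 CPM (log2 fold change -2.45, SE 0.47, edgeR adjusted p = 2.39e-05), ZNF576 5.07 and 3.68 CPM (-2.24, SE 0.44) and ZNF593 191 and 175 CPM (-0.57, SE 0.12). ZNF576 and ZNF593 lay below every DMSO well, and ZNF146 overlapped with DMSO. ZNF771 had 3.38 and 1.84 CPM, 3 reads, or 11.3% of its DMSO mean (95% counting interval 2.34 to 33.1%). ZNF90, with 16 fingers and a KRAB pattern, had 15.2 and 20.2 CPM against 1.25 to 21.1 in DMSO and was the member called higher (1.21, SE 0.40, edgeR adjusted p = 0.0201), but not with ERCC scaling.

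Triptolide lowered 26 members (18.2%) against 6.23% of all genes, with a median of -1.03, or -0.97 with the 11 members without reads at their bound. The count rests on both wells and on the tool: with 1 well left out 2.08 and 0.694% of members were lower, beside 1.05 and 0.634% of all genes, and DESeq2 gave 2.098% of members and 2.25% of all genes. No member was called higher by edgeR or limma-voom, where edgeR called 5.14% of all genes higher. Of the members, 0 had an unadjusted p under 0.05 in that direction. ZNF775 had 4.49 and 0 CPM, 2 reads, or 9.45% of its DMSO mean (95% counting interval 1.144 to 34.1%). ZNF622 (4.49 and 5.09 CPM), ZNF576 (2.25 and 7.64), ZNF146 (2.25 and 10.2) and ZNF24, a SCAN domain repressor (2.25 and 7.64), had log2 fold changes of -2.17, -2.16, -2.06 and -1.99. ZNF691 had 6.74 and 5.09 CPM, below every DMSO well, but did not pass the test (-1.38, SE 0.55, edgeR adjusted p = 0.0841).

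THZ1 lowered 23 members (16.1%) against 6.71% of all genes; its median was -0.87, or -0.72 with the 20 members without reads at their bound. With 1 well left out, 1.39 and 0% of members were lower, beside 0.980 and 0.541% of all genes, and DESeq2 gave 2.80% of members and 2.43% of all genes, so the count rests on both wells and on the tool. None was called higher by edgeR, against 5.32% of all genes, with 2 at an unadjusted p under 0.05 and 1 called by limma-voom. ZNF691 had no read in either well and was at least 4.69-fold below its mean of all DMSO wells. For ZNF574, chosen after its values were seen, that bound was 3.29-fold. Their DMSO means were 23.6 and 15.8 CPM in the first plate column and 17.5 and 12.6 CPM in the others, against which the bounds are smaller. ZNF775 had 5.68 and 0 CPM, 2 reads, or 10.99% of its DMSO mean (95% counting interval 1.33 to 39.7%), and ZNF622 5.68 and 2.72 CPM, 3 reads, or 16.2% (3.35 to 47.4%). ZNF598, a ubiquitin ligase that senses collided ribosomes, had 17.0 and 2.72 CPM against 24.3 to 80.7 in DMSO (log2 fold change -1.66, SE 0.52, edgeR adjusted p = 0.0210). ZNF593 had 202 and 231 CPM and also lay below every DMSO well (-0.40, SE 0.13).

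THZ531 lowered 23 members (16.1%) and raised 1, against 8.24% and 7.11% of all genes; its median was -1.06, or -0.89 with the 12 members without reads at their bound. With 1 well left out, 0.694 and 0% of members were lower, beside 0.877 and 0.858% of all genes, DESeq2 gave 2.098% of members and 2.88% of all genes, and limma-voom 6.99 and 4.57%. ZNF576 had 2.39 and 0 CPM, 1 read, or 4.83% of its DMSO mean (95% counting interval 0.122 to 26.9%). ZNF691 also had 2.39 and 0 CPM, or 6.59% (0.167 to 36.7%). ZNF514, at 17.9 CPM in DMSO and chosen after its values were seen, had no read and was at least 4.64-fold below its mean of all DMSO wells. That mean was 24.1 CPM in the first plate column and 14.8 CPM in the others, against which the bound is smaller. ZNF207 had 57.4 and 33.4 CPM (log2 fold change -0.83, SE 0.22, edgeR adjusted p = 0.00361), below every DMSO well. ZNF600, with 18 fingers and a KRAB pattern, had 19.1 and 13.9 CPM against 0 to 15.5 in DMSO (1.23, SE 0.45, edgeR adjusted p = 0.0446), but was not called with ERCC scaling. Set directly against AZ5576, 3 members were higher with THZ531, where 1.62% of all genes were: ZNF7 (23.9 and 25.1 CPM against 1.34 to 8.21), ZNF768 and ZNF296, named because they are all that were called. With the treated wells of 1 plate left out, 0 and 1 members differed. DRB against AZ5576 gave 0 members by edgeR, with 8 at an unadjusted p under 0.05 and 1 called by limma-voom.

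**Figure D3:**
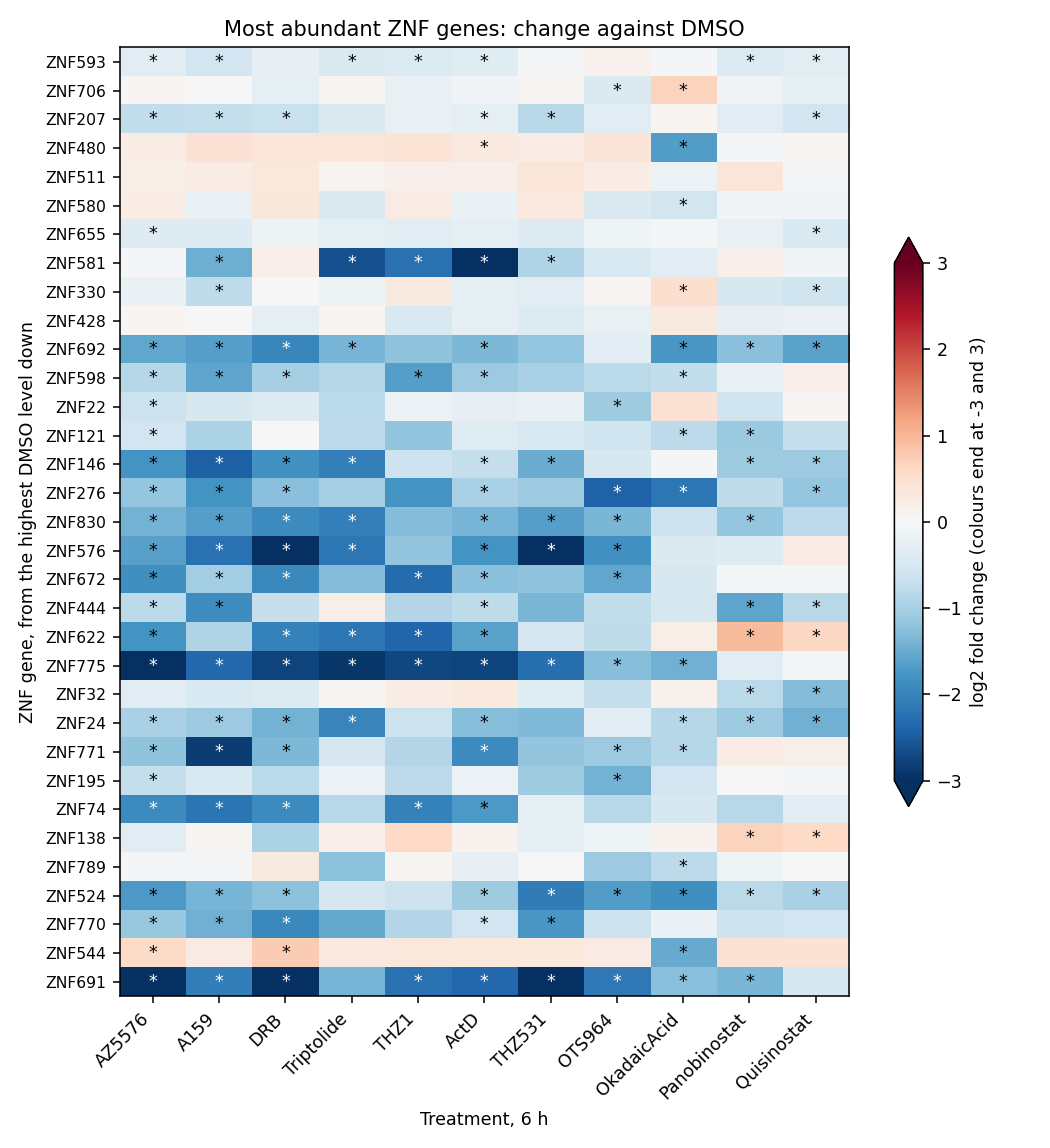
Log2 fold change against DMSO (colour, blue lower and red higher) of the 32 ZNF genes of at least 20 CPM in DMSO and of ZNF691, ordered by DMSO level, in 11 treatments; asterisks mark calls by edgeR at an adjusted p under 0.05, and members without reads are drawn at their bound. ZNF775 and ZNF691 are blue through most columns, ZNF581 is dark under ActD, Triptolide and THZ1 and pale under AZ5576 and DRB, and ZNF480 is dark under OkadaicAcid; with ERCC scaling ZNF544 under DRB changes to -0.13.

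OTS964 lowered some members and raised others, but the share raised was smaller than that of all genes. It lowered 24 members (16.8%) and raised 4 (2.80%), against 8.91% and 8.37% of all genes. The members' median was -0.39 against -0.09 over all genes. With 1 well left out, 0.694% of members were lower in either case, beside 1.39 and 1.28% of all genes, DESeq2 gave 2.80% of members and 3.66% of all genes, and limma-voom 8.39 and 5.61%. ZNF408, whose mutations cause inherited retinal disease, had 31.6 and 59.9 CPM, each above the DMSO range of 5.76 to 29.2 CPM (log2 fold change 1.95, SE 0.25, edgeR adjusted p = 3.33e-10). ZNF217, a transcription factor gene amplified in breast cancer, had 7.02 and 23.97 CPM against 0 to 40.3 in DMSO (median 4.75), a log2 fold change of 1.54 (SE 0.40) with overlapping wells. ZNF317 had 17.6 and 30.8 CPM (0.98, SE 0.32) and ZNF689 10.5 and 20.5 CPM (1.19, SE 0.39), both with overlapping wells. With ERCC scaling, which moved the median of all genes by -0.76, ZNF408 alone of the 143 tested members was called higher (1.18).

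Among members that OTS964 lowered, ZNF276 had 1.76 and 5.14 CPM against 8.38 to 77.9 in DMSO (log2 fold change -2.44, SE 0.60, edgeR adjusted p = 0.00150). ZNF576 had 8.78 and 3.42 CPM (-1.83, SE 0.40), ZNF524 3.51 and 6.85 CPM (-1.68, SE 0.43) and ZNF672 3.51 and 10.3 CPM (-1.57, SE 0.44), each below every DMSO well. ZNF706 had 126 and 132 CPM, below its DMSO range of 177 to 260 CPM (-0.44, SE 0.13). Of the 56 tested members with a KRAB pattern, 2 were lower and 2 higher.

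The difference between OTS964 and AZ5576 was tested directly: 22 members were higher with OTS964 and 1 lower, where 4.22% of all genes were higher and 1.28% lower. ZNF408 had 2.72 to 8.21 CPM with AZ5576, all below the OTS964 wells, a difference of 2.98 on the log2 scale (SE 0.35, edgeR adjusted p = 3.12e-12). ZNF317 had 0 to 5.48 CPM (2.75, SE 0.48), ZNF217 0 to 2.72 CPM (3.19, SE 0.60) and ZNF689 0 to 3.65 CPM (3.48, SE 0.63) with AZ5576, each below both OTS964 wells. ZNF281, a regulator of pluripotency genes chosen after its values were seen, had 14.04 and 13.7 CPM with OTS964 and at most 1.83 CPM with AZ5576. As each compound was present at a dose that is not given, these differences hold for these wells. They rest on 2 OTS964 wells: with the OTS964 and AZ5576 wells of 1 plate left out, 4 to 14 members differed.

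**Figure D4:**
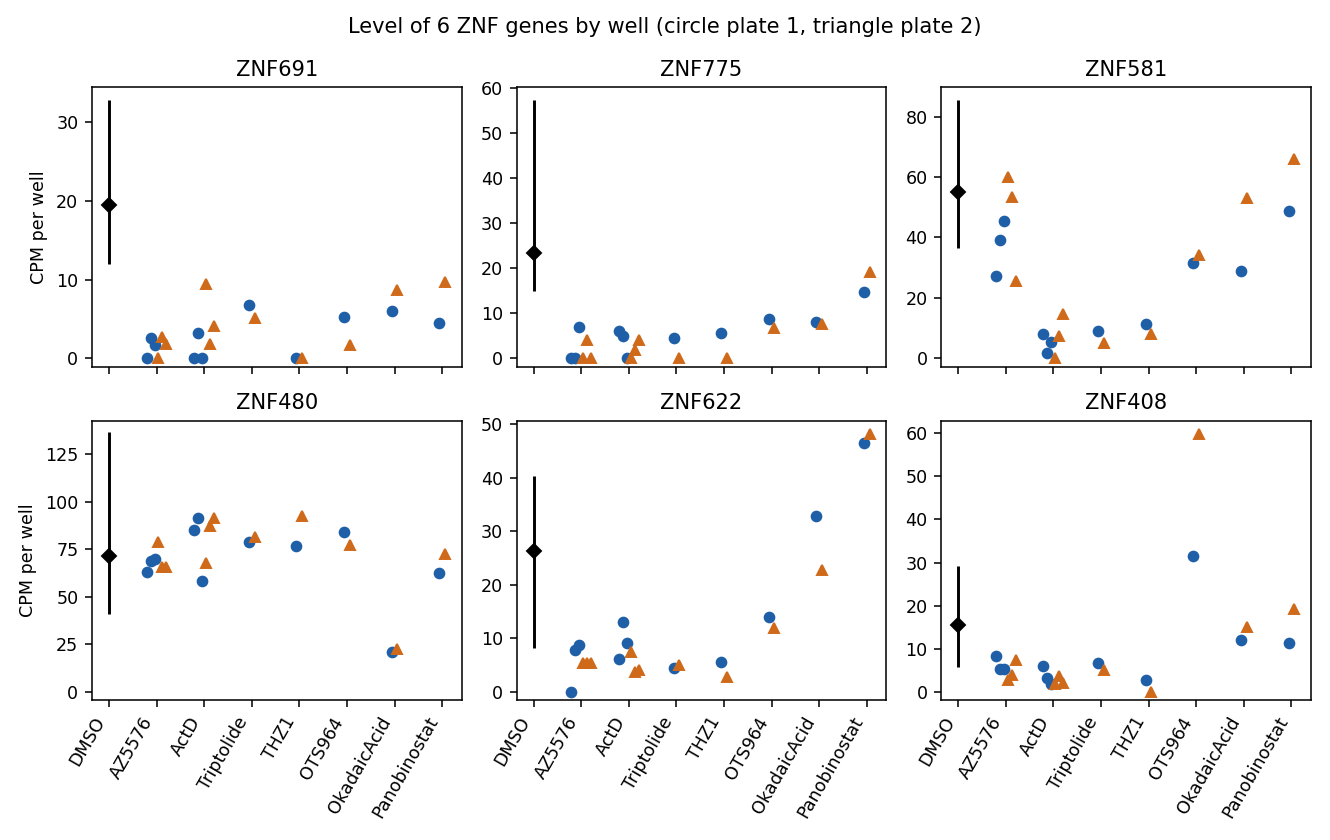
Level of 6 ZNF genes (CPM) in single wells of 7 treatments, circles for plate 1 and triangles for plate 2, beside the range (line) and median (diamond) of the 24 DMSO wells. ZNF691 and ZNF775 lie below the DMSO line with AZ5576, ActD, Triptolide, THZ1, OTS964 and OkadaicAcid (ZNF691 also with Panobinostat), ZNF581 falls with ActD, Triptolide and THZ1, ZNF480 with OkadaicAcid alone of the 7, ZNF622 lies above its DMSO range with Panobinostat, and ZNF408 above it with OTS964.

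Okadaic acid lowered 41 members (28.7%) and raised 3, against 16.4% and 14.9% of all genes, with a median of -0.65 against -0.07. With 1 well left out, 6.25% of members were lower in either case, beside 4.64 and 4.43% of all genes; DESeq2 gave 12.6 and 9.99%. ZNF480 (10 fingers and a KRAB pattern) had 21.0 and 22.7 CPM, below its DMSO range of 41.0 to 137 CPM (log2 fold change -1.67, SE 0.21, edgeR adjusted p = 1.63e-11). ZNF544, also with a KRAB pattern, had 5.99 and 7.58 CPM (-1.52, SE 0.33), below its DMSO range of 7.77 to 34.6 CPM. ZNF276 had 5.00 and 4.33 CPM (-2.17, SE 0.43), ZNF524 4.00 and 6.49 CPM (-1.83, SE 0.34) and ZNF692 16.0 and 4.33 CPM (-1.76, SE 0.35), each below every DMSO well. ZNF480 and ZNF544 are thus among the members that were lower with OkadaicAcid and higher with ActD (ZNF480) or with AZ5576 and DRB (ZNF544); the difference between those treatments was not tested.

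The members that okadaic acid raised were ZNF706, with 314 and 315 CPM against 177 to 260 in DMSO (log2 fold change 0.67, SE 0.09, edgeR adjusted p = 8.63e-11), ZNF330, a nucleolar protein, with 66.9 and 60.6 CPM (0.51, SE 0.16), and ZNF473, which acts with the U7 particle in histone mRNA processing, with 13.99 and 12.99 CPM (0.87, SE 0.34). ZNF706 lay above every DMSO well, whereas the wells of ZNF330 and ZNF473 overlapped with DMSO. The ratio of human to ERCC reads was 5.06 and 5.22, within the DMSO range, and with ERCC scaling 37 members were lower and 1 higher, where 13.5% of all genes were lower and 8.54% higher.

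With the HDAC inhibitors members were called in both directions, but the share raised was smaller than that of all genes. Quisinostat lowered 23 members (16.1%) and raised 7 (4.90%), against 10.1% and 11.2% of all genes. Panobinostat lowered 20 (13.99%) and raised 7 (4.90%), against 8.55% and 10.6%. The members' medians were -0.25 and -0.31. With 1 well left out, 4.86 and 4.17% of members were lower with Quisinostat, beside 3.10 and 2.04% of all genes, and 0.694 and 2.78% with Panobinostat, beside 1.69 and 2.21%. DESeq2 gave 4.90% of members and 5.01% of all genes with Quisinostat, and 6.99 and 4.49% with Panobinostat. ZNF217 had 25.3 and 21.3 CPM with Quisinostat (log2 fold change 1.95, SE 0.28, edgeR adjusted p = 3.46e-09) and 18.1 and 20.9 CPM with Panobinostat (1.69, SE 0.33), against a DMSO median of 4.75 and a DMSO range of 0 to 40.3 CPM. ZNF487 had 24.2 and 20.3 CPM (1.87, SE 0.30) and 11.3 and 19.3 CPM (1.28, SE 0.38), against 1.42 to 19.4 in DMSO. ZNF277 had 20 and 21.3 CPM (1.21, SE 0.28) and 17.0 and 16.1 CPM (0.90, SE 0.33), above its DMSO range of 0 to 13.7 CPM in each of the 4 wells.

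ZNF622 had 35.8 and 40.5 CPM with Quisinostat (0.63, SE 0.20) and 46.5 and 48.3 CPM with Panobinostat (0.94, SE 0.21, edgeR adjusted p = 1.74e-04), the latter above its DMSO range of 8.29 to 40.3 CPM; it was called lower with AZ5576, ActD, DRB, Triptolide and THZ1. ZNF324 and ZNF138, both with a KRAB pattern, were higher by 1.43 and 0.60 with Quisinostat and by 1.199 and 0.67 with Panobinostat on the log2 scale, with overlapping wells. ZNF468 was also higher with Panobinostat (1.05, SE 0.39), and ZNF28, named after its values were seen, with Quisinostat (8.42 and 30.9 CPM, 0.88, SE 0.29). With ERCC scaling 6 members were higher with Quisinostat and 3 with Panobinostat, where 7.99% and 5.60% of all genes were higher.

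Among the members that fell, ZNF692 had 6.32 and 17.1 CPM with Quisinostat (log2 fold change -1.60, SE 0.34, edgeR adjusted p = 7.50e-05) and 14.7 and 14.5 CPM with Panobinostat (-1.25, SE 0.35), below every DMSO well. ZNF24 (-1.43 and -1.09), ZNF32 (-1.29 and -0.81), ZNF146 (-1.09 and -1.08), ZNF444 (-0.83 and -1.59) and ZNF524 (-0.98 and -0.80) were lower with both compounds. ZNF330 was lower with Quisinostat, with 32.6 and 26.7 CPM against 33.8 to 97.95 in DMSO (-0.59, SE 0.20). ZNF775 had 13.7 and 27.7 CPM with Quisinostat (-0.05, SE 0.28, edgeR adjusted p = 0.934) and 14.7 and 19.3 CPM with Panobinostat (-0.34, SE 0.33, edgeR adjusted p = 0.540). ZNF691 had 12.6 and 12.8 CPM with Quisinostat (-0.47, SE 0.30, edgeR adjusted p = 0.282) and 4.54 and 9.65 CPM with Panobinostat (-1.38, SE 0.40, edgeR adjusted p = 0.00630).

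By class, the summed level of the 58 members with at least 5 fingers and no KRAB pattern was 33.9% of the mean of the DMSO wells of the plate with AZ5576 (29.8 to 37.8% over 6 wells), that of the 59 KRAB members 47.8% (43.4 to 53.1%), and that of the 30 members with few fingers 61.9% (54.2 to 68.1%). The ranges of these classes over the AZ5576 wells did not overlap. The shares called lower were 45 of 57, 29 of 56 and 18 of 30. With ActD the shares of DMSO were 46.7%, 58.0% and 63.2%, with DRB 38.2%, 52.0% and 60.9%, and with Triptolide 37.1%, 52.7% and 62.5%. These sums weigh members by level, and ZNF593, ZNF706 and ZNF207 belong to the class of few fingers. Counted by member, that class was not the least affected with ActD, with 66.7% of its members lower and a median of -0.93, against 39.3% and -0.60 for KRAB members, nor with DRB, with 33.3% and -0.97 against 25% and -0.95. In the sums with OkadaicAcid the KRAB members stood at 54.4% (54.3 and 54.5% in its wells), those with at least 5 fingers and no KRAB pattern at 64.1%, and those with few fingers at 93.6%. By member the first of these classes did not stand apart: 30.4% of KRAB members were lower (median -0.77), 33.3% of those with at least 5 fingers and no KRAB pattern (-0.78), and 16.7% of those with few fingers (-0.42). EtOH wells had 85.0%, 87.8% and 110% in the same order. The DMSO means used here include the first-column wells, where the summed member level was higher. This can lower these percentages, by an amount that may differ between the classes and was not worked out for each. Among the highest members of each class, ZNF593 (few fingers) had DMSO means of 330 CPM in the first column and 334 CPM in the others. ZNF655 (at least 5 fingers, no KRAB pattern) had 76.6 and 53.1 CPM, and ZNF480 (KRAB pattern) 77.8 and 72.5 CPM. The classes also differ in DMSO level, the part of which in these gaps was not tested, and no test was made between the classes.

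**Figure D5:**
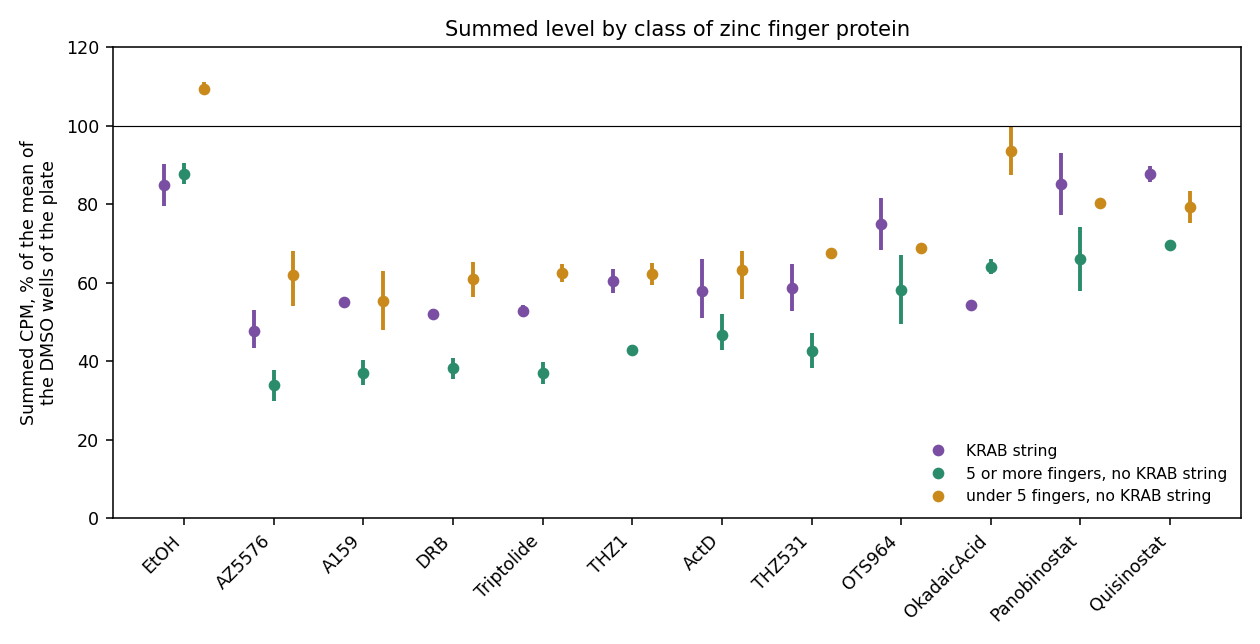
Summed level of 3 classes of ZNF genes as a percentage of the mean of the DMSO wells of the same plate (point, mean of the treated wells; line, lowest to highest well), with 100 drawn as a line. The DMSO mean includes the first-column wells. With AZ5576 the members of at least 5 fingers without a KRAB pattern sit at 33.9%, KRAB members at 47.8% and members of few fingers at 61.9%; with OkadaicAcid the KRAB members are lowest in these sums, at 54.4%, with a median log2 fold change by member of -0.77, against -0.78 for the class of at least 5 fingers.

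Genes through which KRAB proteins act were compared as a list of 25 corepressor and heterochromatin genes, of which 23 were tested. With AZ5576, 6 were lower and 2 higher, with a list median of -0.20, and with ActD 7 were lower and 2 higher (-0.37). These counts lie near those of all tested genes, of which 28.6% and 25.2% were lower, and are no result about the list. SUV39H1, a histone H3 lysine 9 methyltransferase, had log2 fold changes of -1.86 (SE 0.31) with AZ5576, -1.72 (SE 0.29) with ActD, -2.18 (SE 0.40) with Quisinostat and -1.84 (SE 0.41) with Panobinostat. TRIM28, the KRAB corepressor itself, fell by 0.37 on the log2 scale with ActD (SE 0.09, edgeR adjusted p = 5.68e-04). CBX5, which encodes the heterochromatin protein HP1 alpha, had 0.56 with AZ5576 (SE 0.13) and CBX3 0.39 with DRB (SE 0.10), both called higher with TMM scaling but smaller in size than the shifts of -0.74 and -0.88 that ERCC scaling gave the median of all genes. With Triptolide and THZ1, edgeR called 0 of the 23, limma-voom also 0, and 1 and 6 had an unadjusted p under 0.05. OkadaicAcid lowered 4 and raised 5, where 16.4% and 14.9% of all genes were lower and higher, among them DNMT1 (-1.18, SE 0.26) and MTA1 (-1.97, SE 0.44), lower, and PPHLN1 (0.59, SE 0.15) and HDAC1 (0.53, SE 0.15), higher.

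Among the remaining treatments, JQ1, an inhibitor of BET bromodomain proteins, lowered 15 members and raised 5, against 7.80% and 7.18% of all genes. ZNF692 had 6.72 to 23.0 CPM (log2 fold change -1.83, SE 0.29, edgeR adjusted p = 2.36e-07), ZNF593 192.3 to 307 CPM (-0.47, SE 0.08), and ZNF689 a single read in the 6 wells, or 4.06% of its DMSO mean (95% counting interval 0.103 to 22.6%). ZNF32, ZNF335, part of a histone methyltransferase complex, ZNF789, ZNF267, ZNF513, ZNF669 and ZNF846 had log2 fold changes of -1.38, -2.05, 0.64, 0.76, 1.01, 0.80 and 0.79. Of the JQ1 wells 4 lay in the first plate column. With all first-column wells left out, 9 of 134 members were lower and 1 higher, beside 4.90% and 7.14% of all genes. ZNF692 (-2.07, SE 0.36), ZNF593, ZNF689, ZNF32 and ZNF335 passed again, and ZNF789 was higher (0.66, edgeR adjusted p = 0.0490). ZNF267, ZNF669 and ZNF846 did not pass, and ZNF513 was not among the members tested there. The DMSO mean of ZNF513 was 8.59 CPM in the first column and 4.46 CPM in the others. IBET_762, another BET inhibitor, lowered 6 members, against 2.46% of all genes, among them ZNF692 (-1.35, SE 0.25) and ZNF593 (-0.34, SE 0.07).

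A241 raised 6 members and lowered 2, against 2.02% and 3.28% of all genes. ZNF100 had 16.0 and 24.9 CPM, above its DMSO range of 2.51 to 11.5 CPM (log2 fold change 1.55, SE 0.36, edgeR adjusted p = 0.00174), and ZNF32 35.6 and 56.0 CPM (0.90, SE 0.23). ZNF593 and ZNF706 fell by 0.68 and 0.57, below every DMSO well. YKL5124, an inhibitor of CDK7, lowered 5 members and raised 1, against 1.83% and 1.24% of all genes: ZNF267 had 36.6 and 37.2 CPM, above its DMSO range of 3.64 to 29.02 CPM (1.40, SE 0.23, edgeR adjusted p = 3.01e-06), and ZNF207 had 69.4 and 50.6 CPM (-0.64, SE 0.14).

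Over all 74 treatments, which share the same DMSO wells, ZNF593 and ZNF775 were each called lower in 12, and ZNF146, ZNF524, ZNF692 and ZNF746, the parkin substrate PARIS, in 10. ZNF691 was lower in 9. ZNF593 was also called higher in 41 treatments and ZNF706 in 22. EtOH was among them, with ZNF593 at 370 and 450 CPM (log2 fold change 0.35, SE 0.09, edgeR adjusted p = 0.0161) and ZNF706 at 250 and 288 CPM (0.43, SE 0.09), where 0.708% of all genes were higher. As EtOH is itself a solvent, a call of these 2 genes as higher than DMSO is not particular to an inhibitor. Of the 143 tested members, 42 were lower in at least 5 treatments, 19 were lower in none, and 10 were called in neither direction in any treatment. The same counts over all tested genes were not made, so these are a description and no result about the members.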

How the data were processed

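MAC-seq libraries of 192 wells on 2 plates were used. The deposited columns hold read counts, entered in the unit of expected counts, since fractional summary rows, left out here, share them; their gene rows hold whole numbers, neither normalized nor collapsed to molecules. The submitters' processing notes name cutadapt 2.1, R 4.0.2, FastQC 0.11.6, bcl2fastq 2.17.1.14 and the build GRCh37 (hg19). Which aligner, counter and gene models were used is not given in the sources used here. Each well's compound was taken from the deposited well table.

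The counts were fitted, with nothing to round, with edgeR 4.0.16 (R 4.3.3) by the quasi-likelihood test, with TMM scaling over human genes, its low-count filter, all wells, and treatment and plate as terms. The plate term is the replicate block, since the labels number the duplicates by plate. P-values were adjusted over all 10312 tested genes by Benjamini-Hochberg, with calls at 0.05. Where a sentence gives no p, the call is by this test. SE is the absolute log2 fold change divided by the square root of the F statistic of the test. With few reads it can be far smaller than the standard error of the fitted coefficient. A faster solver was checked against the standard one on 300 genes (44 called by each), and the fit was tested on simulated data. Alternatives used limma 3.58.1 (voom), DESeq2 1.42.0, other scalings including ERCC, other filters and minimum levels, and wells left out. Intervals are exact Poisson intervals that take reads as independent. Wells averaged 1.63 to 3.53 reads per molecule tag, so these intervals can be too narrow and bounds from 3 reads too high. Finger and KRAB patterns were counted on translated GENCODE 29 coding sequences.

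The members, gene lists and tests were chosen with earlier results of these data known. Named members are ZNF691, up to 8 per direction with the largest change among called members of at least 20 CPM with the same sign in every treated well (all called members of one sign where fewer than 4 met that level), up to 5 by p in the other treatments, the 10 highest in DMSO, and those called in most treatments.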

Additional observations from a re-analysis of the deposited data

Results flagged for a closer look

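ZNF74, a KRAB zinc finger gene, had 6.69 CPM in 1 of the 6 AZ5576 wells, while the other 5 lay between 2.72 and 3.91 CPM. The gap to the nearest well was 0.702 of the range of the 6 wells. Among 24 such groups of wells examined, 1 stood apart in this way, where chance gives about 1 in 20. That well also lay below the lowest DMSO well of 12.8 CPM, and its part in the call was not tested.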

How the results depend on the processing

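Percentages are of tested members called lower unless a median log2 fold change is named. With the treated wells of 1 plate left out the lowest and highest values were 33.3 and 43.8% for AZ5576, 30.6 and 40.3% for ActD, 7.64 and 7.64% for DRB, 0.694 and 2.08% for Triptolide, 0 and 1.39% for THZ1, 0 and 0.694% for THZ531, 0.694% for OTS964, 4.17 and 6.25% for A159, 6.25% for OkadaicAcid, 4.17 and 4.86% for Quisinostat, and 0.694 and 2.78% for Panobinostat. The medians then ran from -1.11 to -0.95 (THZ1), -1.30 to -0.92 (THZ531) and -0.72 to -0.33 (OTS964), treatments with a member lower numbered 11 to 14 in place of 26, OTS964 against AZ5576 gave 4 to 14 members and THZ531 against AZ5576 0 to 1. A lone treated well was then assumed to vary like the other groups. Over 9 further treatments together (Phendione, JQ1, dBET1, IBET_762, A485, A241, Vorinostat, LDC4297 and YKL5124), 2.64% of member tests were lower and 1.48% higher; without 1 plate these were 0.232 to 0.926% and 0.154%. Single pairs of wells gave 25.2, 39.2 and 25.9% for AZ5576 and 30.1, 28.0 and 23.1% for ActD. ERCC scaling gave 98.6% (ActD), 89.5% (DRB), 74.8% (Triptolide), 64.3% (THZ1), 69.2% (THZ531), 55.9% (OTS964) and 76.9% (A159), and medians of -1.91 (AZ5576), -1.80 (ActD), -1.96 (DRB), -1.81 (Triptolide), -1.74 (THZ1), -1.86 (THZ531), -1.13 (OTS964) and -1.77 (A159); over the 9 it gave 5.59% lower and 0.544% higher. Library size alone gave medians of -1.50 (AZ5576), -1.41 (DRB), -1.26 (Triptolide), -1.08 (THZ1), -1.28 (THZ531), -0.62 (OTS964) and -1.29 (A159), and 4 members for ActD against AZ5576. DESeq2 gave 16.8% (DRB), 2.098% (Triptolide and THZ531), 2.80% (THZ1 and OTS964), 13.99% (A159), 12.6% (OkadaicAcid), 4.90% (Quisinostat), 6.99% (Panobinostat) and 1.40% (the 9). Limma-voom gave 11.2% (Triptolide), 8.39% (THZ1 and OTS964), 6.99% (THZ531, median -0.85), 9.09% (Panobinostat) and 1.63% (the 9), with 2 members for ActD and 1 for DRB against AZ5576. Without the low-count filter the values were 10.9% (Triptolide), 6.80% (THZ1), 8.84% (THZ531 and OTS964), 16.3% (OkadaicAcid), 9.52% (Quisinostat) and 0.907% higher (the 9). A minimum of 2 CPM, unfiltered, gave 36.2% (ActD), 15.5% (DRB), 6.50% (Triptolide and Panobinostat), 4.07% (THZ1), 5.29% (THZ531 and OTS964), 14.2% (A159), 10.2% (OkadaicAcid) and 5.69% (Quisinostat). Members chosen on plate 1 had a THZ531 median of -1.30 on plate 2. Leaving out every first-column well, chosen after seeing the data, gave 1.74% lower over the 9 and 3 members for ActD against AZ5576. Without the replicate block (no plate term) the shares were 64.3% (AZ5576), 54.6% (ActD) and 31.5% (DRB), and 21 treatments had a member lower. Apart from the construction of each setting, the cause was not tested. Of 162 values of 56 named members, recomputed under these settings, 1 reversed: ZNF544 with DRB, -0.13 with ERCC scaling. A further 472 recomputed values kept their direction and lost the call, 104 and 114 of them with the treated wells of a plate left out, and 1618 kept both. With 2 wells a treatment and members of 5 to 10 CPM, a few reads decide single calls, so a member not called is not shown to be unchanged.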

Other observations

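Other zinc finger families that met the same minimum level are described by their counts, apart from the 3 ZFP genes, which are not described here. With AZ5576, 10 of 14 ZBTB genes, which pair fingers with a BTB domain, were called lower (median log2 fold change -1.34), as were 4 of 4 tested ZSCAN genes (-1.72), 3 of 4 ZKSCAN genes (-1.12) and 2 of 2 PRDM genes (-2.29), against 28.6% of all tested genes. Of the KLF genes, 1 of 3 was lower (-0.31), and none of the families described had a member called higher with AZ5576. With ActD the lower counts were 7 of 14 ZBTB, 3 of 4 ZSCAN, 4 of 4 ZKSCAN and 2 of 2 PRDM genes, where 25.2% of all tested genes were lower. The KLF count with ActD is not given here.

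With OTS964, 1 of 14 ZBTB genes was lower, with a median of 0.03, where 8.91% of all tested genes were lower. With Panobinostat 0 of 14 ZBTB genes were called lower by edgeR and 2 higher, while 2 of 3 KLF genes were lower (-1.75), where 8.55% of all tested genes were lower and 10.6% higher. Counts as small as these lie near those shares for the ZBTB genes. These families are small, and no difference between them and the ZNF genes was tested.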
